A study of Homo sapiens with 4 samples.

Results

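The annexins are a family of proteins that bind acidic phospholipids, above all phosphatidylserine, when calcium rises. Each has a conserved core that holds the calcium sites and faces the membrane, and an N-terminal tail that differs between members and carries most of their partner binding. They bridge and order membranes in endocytosis, exocytosis and the repair of plasma membrane wounds. Several are routinely found in extracellular vesicles, and the gut epithelium makes many of them.

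The 10 annexin genes described here were taken by symbol from the names of the deposited targets, of which there were 20322, each a different gene represented by 1 transcript. RNA was sequenced from HT-29, a human colorectal adenocarcinoma line, in 2 libraries labelled IMP1-OE and 2 labelled null. In both groups the gene of IMP1 (IGF2BP1), an RNA-binding protein of fetal tissues and tumours, had been targeted with CRISPR/Cas9, and a mouse liver metastasis is given as the tumour origin. IMP1-OE cells then carried a PiggyBac vector with FLAG-tagged IMP1 and a short UTR, and null cells an empty PiggyBac vector, both in medium with puromycin. The sources used here do not state whether the 2 libraries of a group came from separate cultures or clones, so the spread between them may be technical.

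Library totals lay between 9343429 and 10594813 counts. IGF2BP1 had 71 and 112 counts in IMP1-OE and 37 and 16 counts in null, a log2 fold change of 1.69 (SE 0.56, edgeR adjusted p = 0.453), so its order follows the labels without passing the threshold of 0.05. The null libraries lay further apart than the IMP1-OE libraries. Over the 12113 genes tested, the median absolute difference in log2 CPM (counts scaled to a common library size, prior count 2) was 0.23 between the IMP1-OE replicates and 0.39 between the null replicates. Of 12 colon epithelial markers, all had counts and 9 were highest in null replicate 1 (the share of all genes was not computed). Their summed level was 26559 and 27325.5 CPM in IMP1-OE, against 28811 and 21040.5 CPM in null. CDX2, an intestinal identity factor, had 0 and 3 counts in IMP1-OE and 47 and 2 counts in null. Hepatocyte, endothelial and fibroblast markers each summed to at most 10.8 CPM in any library. Of 5 leukocyte markers CD3E was at 0 throughout, PTPRC had 0 and 5 counts in IMP1-OE and 0 in both null libraries, and LYZ, which gut epithelium also makes, supplied nearly all of the summed 1395 to 2816 CPM.

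Annexin mRNAs together took 0.599% and 0.548% of the counts in IMP1-OE and 0.632% and 0.429% in null. A single target, ARSI, took 8.01% and 12.4% in IMP1-OE and 17.8% and 17.3% in null. With ARSI left out, the annexin shares were 0.651% and 0.626% in IMP1-OE and 0.769% and 0.518% in null. For levels of different genes the deposited TPM values (kallisto's measure of level, corrected for target length and scaled to a common total) were used. ANXA2 stood first, at 3058 ± 94.5 TPM in IMP1-OE and 2916 ± 913 TPM in null (mean ± SD, n = 2 libraries in each group, as for all such values here). With ARSI, the most counted target, left out of the TPM, the order of these means turned, to 3252 TPM in IMP1-OE and 3263 TPM in null. It held 56.1% to 58.3% of the summed annexin TPM in every library and ranked between 20 and 44 among all targets. ANXA5 followed at 724 ± 6.99 TPM in IMP1-OE and 487 ± 158 TPM in null, then ANXA4 at 549 ± 46.3 TPM and 605 ± 120 TPM. The ranges of ANXA5 and ANXA4 over the 4 libraries overlapped, as did those of ANXA10 (86.1 to 449 TPM), ANXA1 (227 to 350 TPM) and ANXA3 (196 to 230 TPM). ANXA7 lay between 95.8 and 118 TPM, and ANXA11 between 64.9 and 78.3 TPM. The place of ANXA11 in this order rests on its target of 6965 nt, the longest annexin target, against 2174 nt for ANXA7. By counts alone ANXA11 stood above ANXA7 in every library. ANXA13 ran from 4.09 to 156 TPM and ANXA6 from 3.47 to 15.6 TPM, each overlapping its neighbour in this order.

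**Figure D1:**
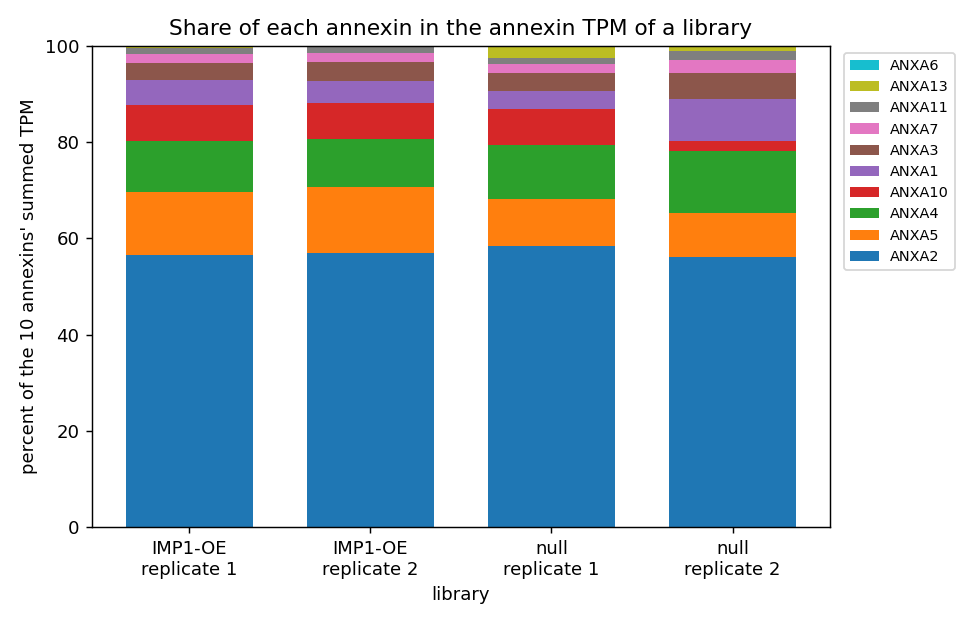
Share of each of the 10 annexins in the summed annexin TPM (y axis, percent) of the 4 libraries (x axis), stacked from the most to the least abundant by mean. ANXA2 holds 56.1% to 58.3% in every library, while ANXA10 takes 7.58% and 7.52% in IMP1-OE against 7.36% and 2.13% in null.

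The comparison of IMP1-OE with null asks which mRNAs differ between cells with the IMP1 vector and cells with the empty vector. None of the 10 annexins passed an edgeR adjusted p of 0.05, where 0 of 12113 genes, 0% of those tested, passed. At an unadjusted p under 0.05 the edgeR quasi-likelihood test gave 1 member, ANXA13, which was lower in IMP1-OE, beside 5.84% of all genes lower and 4.34% higher. DESeq2 called 0 members and 1.28% of the 12836 genes with an adjusted p, and limma-voom 0 members and 0.00826% of all genes. The edgeR likelihood ratio test called 1 member, again ANXA13, and 1.28% of all genes. The 2 groups did not overlap for 4 of the 10 members, 1 higher and 3 lower in IMP1-OE, beside 43.2% of all genes tested (21.3% higher, 21.9% lower). The fitted log2 fold change was below 0 for 6 of 10 members and for 51.9% of all genes. Its median was -0.12 over the members and -0.02 over all genes.

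**Figure D2:**
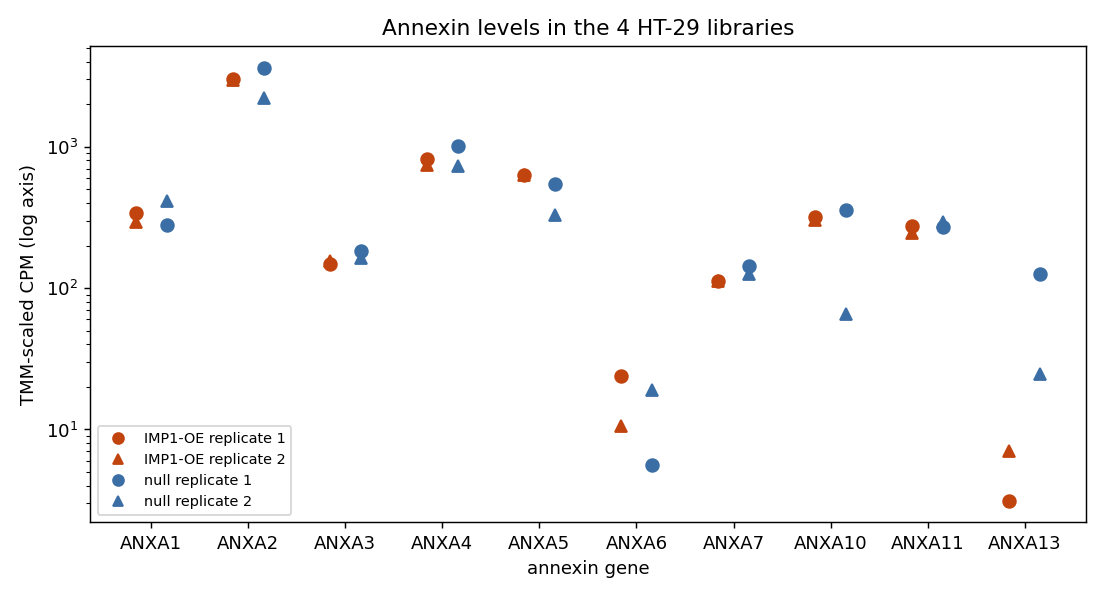
TMM-scaled CPM of the 10 annexins (y axis, log scale) in the 2 IMP1-OE libraries (left of each pair) and the 2 null libraries (right). ANXA13 stands at 3.14 and 7.03 CPM in IMP1-OE against 125 and 24.6 CPM in null, and ANXA10 is low in null replicate 2 only, at 65.7 CPM.

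ANXA13 is the annexin most restricted to the intestine, where a myristoylated form takes part in transport to the apical membrane. It had 33 and 74 counts in IMP1-OE, against 1281 and 225 counts in null. On the TMM-scaled CPM scale, used for all comparisons of a gene between libraries, this was 3.14 and 7.03 CPM in IMP1-OE and 125 and 24.6 CPM in null. Both IMP1-OE libraries lay below both null libraries, but the null libraries themselves differed 5.09-fold. The fitted level was 14.7-fold lower in IMP1-OE, a log2 fold change of -3.88 (SE 0.85, 95% interval -5.96 to -1.80). Its edgeR adjusted p was 0.433 (unadjusted p = 0.00389). Its rank by TPM among all targets was 8878 and 6966 in IMP1-OE and 953 and 3506 in null.

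The size of the ANXA13 difference depended on which libraries were used. Without null replicate 1 the log2 fold change was -2.27 and without null replicate 2 it was -4.62. With a null library left out, the IMP1-OE pair alone gives the spread, and the lone null library is assumed to vary like that pair. The null pair in fact lay further apart, so for such omissions the fold change is given without a p. Without IMP1-OE replicate 1 it was -3.41, and without IMP1-OE replicate 2 it was -4.56. The edgeR likelihood ratio test on all 4 libraries gave an adjusted p of 0.00112 and DESeq2 gave 0.0586. For ANXA13 a log2 fold change of -0.05 stands in the authors' deposited table, with the same adjusted p of 0.0586, while the DESeq2 estimate without shrinkage was -3.88. Null replicate 1, where ANXA13 was highest, is also the library in which 9 of the 12 epithelial markers were highest. The others, EPCAM, KRT18 and KRT19, were highest in an IMP1-OE library. Without the share of all genes highest in null replicate 1, the 9 are a description only. Of the 9, CEACAM5, a gut adhesion protein, was named after its values were seen. It stood at 6.38 and 10.2 CPM in IMP1-OE and 59.3 and 3.83 CPM in null, so unlike ANXA13 it was lowest in null replicate 2. LGALS4, also named after its values were seen, was at 1322 and 1183 CPM in IMP1-OE and 2546 and 1413 CPM in null. Like ANXA13 it had both IMP1-OE libraries below both null libraries. This held for 1 of the 10 tested markers and for 21.9% of all genes tested. The part of the marker differences in the ANXA13 difference was not tested. In bulk RNA fewer cells with the transcript and less transcript per cell cannot be told apart.

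ANXA10 is known from gastric epithelium and from gastric-type and serrated tumours of the gut, and its calcium sites are largely lost. It was at 318 and 305 CPM in IMP1-OE, against 358 and 65.7 CPM in null. Null replicate 1 lay above both IMP1-OE libraries and null replicate 2 far below them, a 5.45-fold spread within null. The log2 fold change of 0.56 (SE 0.69, 95% interval -1.14 to 2.26, edgeR adjusted p = 0.824) lay between the values obtained with either null library alone. Without null replicate 1 it was 2.25 and without null replicate 2 it was -0.20. In size, the log2 difference between the null replicates exceeded that of 96.8% of all genes tested.

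ANXA5, the phosphatidylserine binder used to stain dying cells, was at 631 and 633 CPM in IMP1-OE, against 543 and 326 CPM in null. It was the 1 member whose IMP1-OE libraries both lay above both null libraries. The log2 fold change was 0.54 (SE 0.26, 95% interval -0.11 to 1.19). Its edgeR adjusted p was 0.536 (unadjusted p = 0.0871). With null replicate 1 omitted the log2 fold change was 0.95, and with null replicate 2 omitted it was 0.22. ANXA4, an annexin of epithelia that forms ordered arrays on membranes, stood at 819 and 739 CPM in IMP1-OE, against 1018 and 735 CPM in null. Those ranges overlapped, with a log2 fold change of -0.17 (SE 0.21, edgeR adjusted p = 0.822).

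ANXA2 forms a tetramer with the S100 protein S100A10 that binds actin, endosomes and, at the cell surface, plasminogen. It was at 3038 and 2957 CPM in IMP1-OE, against 3629 and 2217 CPM in null, so both IMP1-OE libraries lay between the null libraries. The log2 fold change was 0.04 (SE 0.25, 95% interval -0.59 to 0.66, edgeR adjusted p = 0.974), -0.28 without null replicate 2 and 0.43 without null replicate 1. RefSeq lists 3 transcribed ANXA2 pseudogenes, none of them a deposited target, so short fragments from these could be counted as ANXA2. S100A10 followed the same order over the libraries, at 457 and 379 CPM in IMP1-OE against 574 and 233 CPM in null (log2 fold change 0.05, edgeR adjusted p = 0.980).

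ANXA1, also called lipocortin, is an inhibitor of inflammation that signals through formyl peptide receptors and binds S100A11. It was at 342 and 291 CPM in IMP1-OE, against 278 and 412 CPM in null. Here too the null libraries lay on either side of the IMP1-OE libraries, but with null replicate 2 the higher. The log2 fold change was -0.12 (SE 0.24, 95% interval -0.70 to 0.46, edgeR adjusted p = 0.889), and 0.19 without null replicate 2. S100A11 was at 482 and 592 CPM in IMP1-OE, against 473 and 995 CPM in null, and like ANXA1 was lowest in null replicate 1 and highest in null replicate 2 (log2 fold change -0.45, edgeR adjusted p = 0.703). For S100A10 the log2 fold change was 0.84 with null replicate 1 omitted and -0.46 with null replicate 2 omitted. For S100A11 it was -0.89 and 0.18 for the same omissions.

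ANXA7 and ANXA11 have long N-terminal tails and bind the calcium sensor ALG-2. ANXA7, or synexin, was first described as a factor that joins secretory granules, and ANXA11 tethers RNA granules to lysosomes. ANXA7 was at 112 and 112 CPM in IMP1-OE, against 142 and 126 CPM in null, with no overlap between the groups (log2 fold change -0.25, SE 0.17, edgeR adjusted p = 0.649). ANXA11 was at 275 and 245 CPM in IMP1-OE, against 273 and 292 CPM in null (log2 fold change -0.12, SE 0.17, edgeR adjusted p = 0.845). ANXA3, known from neutrophil granules, was at 148 and 156 CPM in IMP1-OE, against 182 and 164 CPM in null, again without overlap (log2 fold change -0.19, SE 0.17, edgeR adjusted p = 0.744). The 95% intervals of these log2 fold changes were -0.67 to 0.16 for ANXA7, -0.53 to 0.29 for ANXA11 and -0.60 to 0.22 for ANXA3. ANXA11 stayed below 0 whichever of the 4 libraries was omitted. ANXA7 and ANXA3 did too, which their groups without overlap fixed in advance.

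ANXA6, which carries a duplicated annexin core and recruits the Ras-GTPase activating protein RASA1 to membranes, was the least abundant member by mean TPM. It had 251 and 112 counts in IMP1-OE and 57 and 173 counts in null, or 23.9 and 10.6 CPM in IMP1-OE against 5.58 and 18.9 CPM in null. The replicates of both groups lay apart and overlapped (log2 fold change 0.50, SE 0.65, 95% interval -1.10 to 2.1, edgeR adjusted p = 0.833). The value was -0.13 without null replicate 1, -0.20 without IMP1-OE replicate 1 and 1.63 without null replicate 2.

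**Figure D3:**
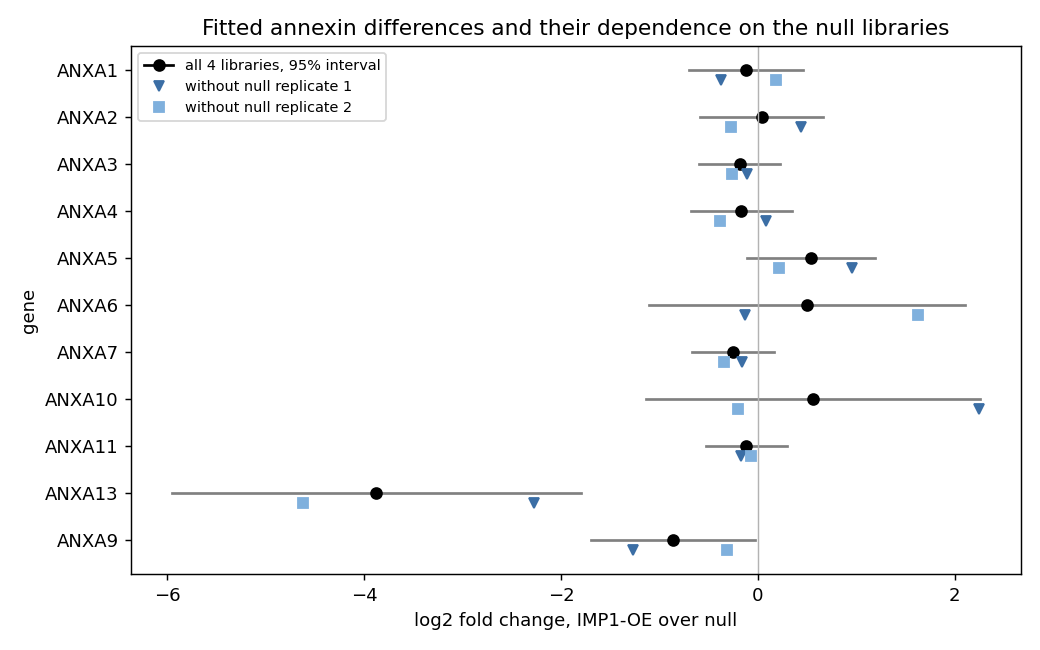
Fitted log2 fold change, IMP1-OE over null (x axis), of the 10 annexins and ANXA9 (y axis), with all 4 libraries and its 95% interval (black), and without null replicate 1 or null replicate 2 (blue, no interval). ANXA13, whose groups do not overlap, can only lie below 0 in each, at -3.88, -2.27 and -4.62, while ANXA10 moves between 2.25 and -0.20.

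A difference between 2 single libraries varies more than a difference between group means, each taken over 2 libraries. A null difference larger than the group difference is therefore no trait of a member by itself. The absolute difference in log2 CPM between the null replicates was larger than that between the group means for 6 of 10 members, against 59.9% of all genes tested. It was larger than that between the IMP1-OE replicates for 9 of 10 members, against 64.4% of all genes. Its median over the members was 0.64, beside 0.12 between the IMP1-OE replicates. Null replicate 2 stood below null replicate 1 for 7 members, with log2 differences of -2.44 for ANXA10 and -2.34 for ANXA13. It stood above null replicate 1 for ANXA1, ANXA6 and ANXA11. The share of all genes lower in null replicate 2 was not computed, so this count describes the members only.

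**Figure D4:**
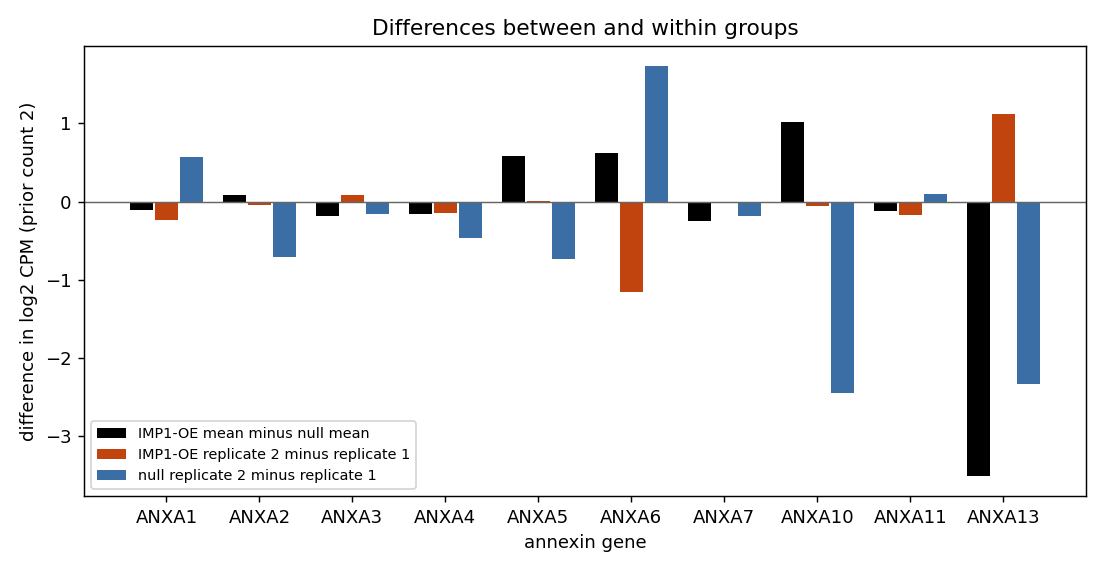
Differences in log2 CPM (y axis, prior count 2) of each annexin (x axis) between the group means (black), the IMP1-OE replicates (orange) and the null replicates (blue). ANXA13 has a group difference of -3.51, larger in size than its difference of -2.34 between null replicates, whereas for ANXA10 the values are 1.02 and -2.44. Group means are taken over 2 libraries, so their differences vary less than those between single libraries.

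Another 4 targets have symbols that start with ANXA. ANXA9, an annexin with altered calcium sites, was at 42.6 and 35.0 CPM in IMP1-OE, against 48.2 and 93.3 CPM in null, with no overlap. Its log2 fold change was -0.87 (SE 0.34, unadjusted p = 0.0436, edgeR adjusted p = 0.483), -1.27 without null replicate 1 and -0.31 without null replicate 2. ANXA2R, which is named as a receptor of annexin A2 and is no annexin, had 14 and 12 counts in IMP1-OE and 44 and 21 counts in null (log2 fold change -1.41, SE 0.72, edgeR adjusted p = 0.550). ANXA8 and its near-identical copy ANXA8L1 had 0 counts in all 4 libraries, and a count of 0 allows up to 3 counts, or 0.283 to 0.321 CPM, by counting error.

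The 35 listed genes that act with annexins gave 26 tested genes, of which 0 passed an edgeR adjusted p of 0.05. At an unadjusted p under 0.05 there were 3, all lower in IMP1-OE, beside 5.84% of all genes. A log2 fold change below 0 was found for 20 of the 26, with a median of -0.21, beside 51.9% of all genes and a median of -0.02. The lists were chosen with earlier results of these data known, which showed LGALS3, S100A10 and S100A11. These counts are therefore a description of the 26 genes only. DESeq2 called 1 of the 26, LGALS3, and 1.28% of the 12836 genes with an adjusted p. Of 4 S100 partners, S100A6, which binds ANXA11 and ANXA2, had an unadjusted p of 0.0142. It stood at 5093 and 4403 CPM in IMP1-OE, against 7700.0 and 6645 CPM in null (log2 fold change -0.60, SE 0.17, edgeR adjusted p = 0.446). Of 10 membrane repair genes, 9 were tested, 3 with higher and 6 with lower values. MYOF, the gene of the membrane fusion protein myoferlin, was at 73.2 and 72.3 CPM in IMP1-OE, against 112 and 123 CPM in null (log2 fold change -0.69, SE 0.17, unadjusted p = 0.00657, edgeR adjusted p = 0.435).

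All 5 genes of other binding partners had log2 fold changes below 0, beside 51.9% of all genes. For 4 of the 5 the groups overlapped, and only LGALS3 had an unadjusted edgeR p under 0.05. LGALS3, the gene of galectin-3, which binds ANXA7, stood at 26.4 and 24.5 CPM in IMP1-OE, against 88.8 and 72.1 CPM in null. Its log2 fold change was -1.66 (SE 0.20, unadjusted p = 1.97e-04, edgeR adjusted p = 0.255). Omission of null replicate 1 gave -1.50, and omission of null replicate 2 gave -1.80. The plasminogen system had 2 of 6 genes tested, both with values below 0 and neither with an unadjusted p under 0.05, and plasminogen itself, PLG, had 0 counts throughout. None of the 3 formyl peptide receptor genes was tested, and none had more than 2 counts in a library. Genes that move phosphatidylserine across the membrane gave 2 higher and 3 lower of 5 tested, and the cytosolic phospholipase A2 gene PLA2G4A, whose product ANXA1 inhibits, had a log2 fold change of -0.28 (SE 0.19, edgeR adjusted p = 0.650).

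**Figure D5:**
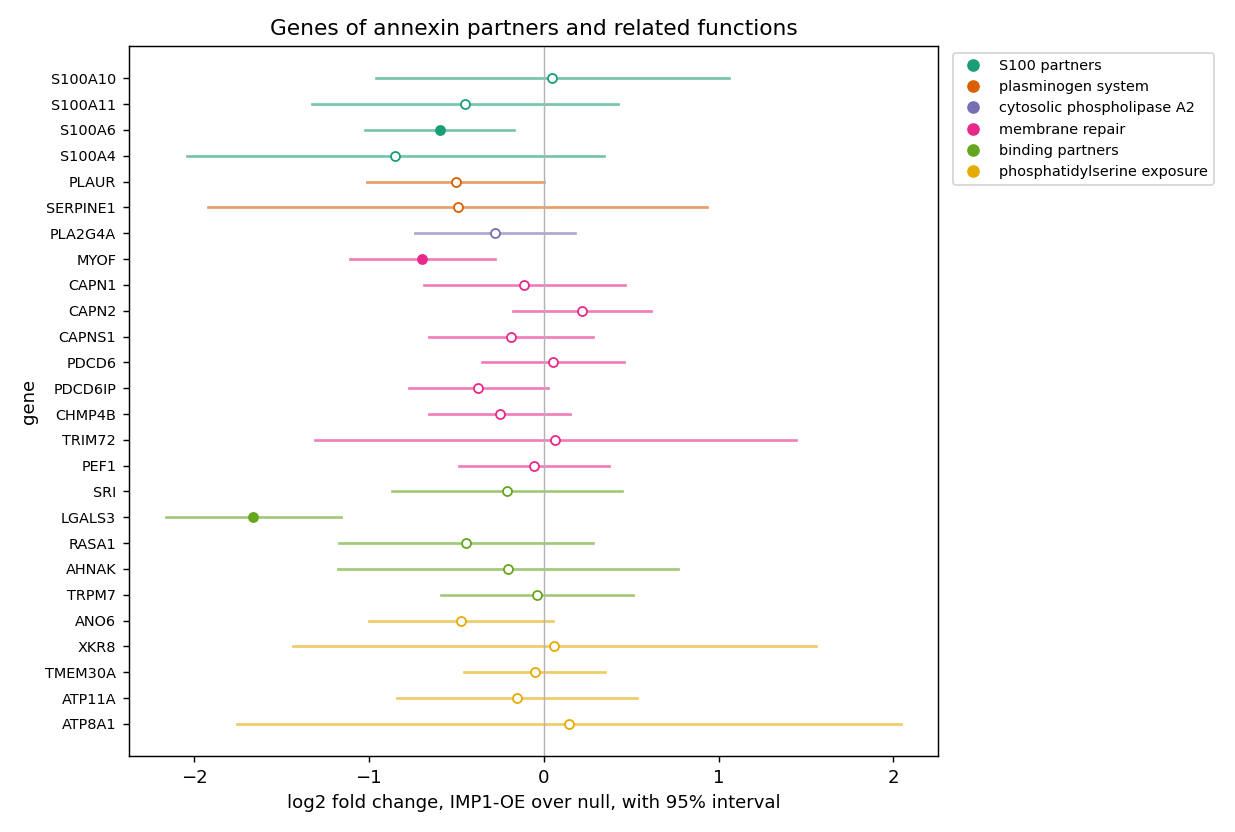
Fitted log2 fold change, IMP1-OE over null (x axis), with 95% intervals, of the 26 tested partner genes (y axis), coloured by list. Filled points mark an unadjusted edgeR p under 0.05, which S100A6, MYOF and LGALS3 reached at -0.60, -0.69 and -1.66.

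For the 2 members with the smallest p, ANXA13 and ANXA5, the 3 genes of nearest pattern were found by Euclidean distance of log2 CPM, centred per gene, over the 4 libraries. A likeness over 4 libraries is a description only. Nearest to ANXA13 were a target with the identifier ENSG00000262526 and no symbol (distance 0.88), SPINK4, a goblet cell peptide gene (1.17), and SLPI, a secreted protease inhibitor gene (1.45). SPINK4 had 2 and 3 counts in IMP1-OE and 154 and 46 counts in null, and SLPI 8 and 5 counts in IMP1-OE and 103 and 37 counts in null. Both had, like ANXA13, null replicate 1 over null replicate 2 over IMP1-OE, an order that a choice by nearness favours. Between the IMP1-OE replicates SLPI fell where ANXA13 rose, from 33 to 74 counts. The IMP1-OE counts of SPINK4 did not exceed the 3 counts that counting error allows for a 0. Nearest to ANXA5 were RRP9, a ribosomal RNA processing gene (0.04), CDCA3, a cell division gene (0.05), and the transcription factor gene SOX4 (0.07). SOX4 was at 110.5 and 111 CPM in IMP1-OE, against 89.9 and 55.9 CPM in null.

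In the authors' deposited table no annexin passed an adjusted p of 0.05, where 1.28% of the 12836 genes with an adjusted p did. The DESeq2 run reported above made the same 164 calls, so the deposited table is no second test. In that table the members' adjusted p ran from 0.0586 for ANXA13 to 0.994 for ANXA2. The deposited log2 fold changes were 0.20 for ANXA5, -0.10 for ANXA7 and 0.01 for ANXA10. Without shrinkage the DESeq2 estimates were 0.54, -0.25 and 0.56. For ANXA9 the authors' deposited table gives -0.24, with a DESeq2 adjusted p of 0.352, against -0.86 without shrinkage.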

How the data were processed

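The deposited values used are the estimated counts and TPM of 20322 targets in 4 libraries, in columns with kallisto's names per the file headers. The submitters' processing notes name kallisto 0.46.2, HISAT2 2.1.0, fastp 0.21, cutadapt 3.5 and DESeq, without roles. Per the labels' protocols, fragments of 18 to 50 nt carried molecular identifiers. Their use and the genome build are unstated in the sources used. All counts were whole and were not rounded. The table's other 2 sample names match no label and were not used. The authors' deposited comparison table gives a mean normalized count (a signal per gene), log2 fold changes with errors, and p-values, per the file headers.

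edgeR 4.0.16 (R 4.3.3) was run with TMM scaling, the default low-count filter (12113 genes kept, all 10 annexins among them) and the quasi-likelihood F test, IMP1-OE over null, with Benjamini-Hochberg adjustment over all genes. SEs were the log2 fold change over the root of F. DESeq2 1.42.0, limma 3.58.1 (voom), the edgeR likelihood ratio test, other scalings and filters, a replicate block and the omission of each library or of ARSI were alternatives, 14 in all. TPM without ARSI was added after seeing the data. With 2 libraries against 2, an exact permutation test cannot go below 0.333. Counts of the 2 libraries of a group differed by more than counting noise (chi-square per degree of freedom 20.1 for IMP1-OE and 58.4 for null), so none were merged. The edgeR quasi-likelihood fit was tested on simulated counts with planted differences, for their sign and size. How many planted genes were called was checked only at a spread below that of the data. The simulation therefore does not show how many real differences would be called here.

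Members and lists were chosen with earlier results of these data known. Named genes are the members, IGF2BP1, other ANXA symbols, partner genes with an unadjusted p under 0.05 with S100A10 and S100A11, and the 3 nearest genes of the 2 members with the smallest p. The markers CDX2, CEACAM5, LGALS4, EPCAM, KRT18, KRT19, CD3E, PTPRC and LYZ, and the genes PLG and PLA2G4A, were named after their values were seen. Floors and intervals on counts cover counting error only.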

Additional observations from a re-analysis of the deposited data

How the results depend on the processing

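With all 4 libraries the edgeR quasi-likelihood test called 0 genes, 0 annexins and 0 partner genes. The number of genes called was 22 with no low-count filter, 1 with at least 10 counts in every library, 164 with DESeq2, 1 with limma-voom and 155 with the likelihood ratio test, which called 1 annexin (ANXA13). With the replicate number as a block it was 15 genes and 0 annexins, and ANXA5 then had an unadjusted edgeR p of 0.0428. The numbers are not stated to pair cultures, and the deviations of same-numbered libraries correlated at 0.12 across genes. Omission of single libraries gave 0 to 783 genes, 783 of them without null replicate 1 and 48 when null replicate 2 was omitted, and 0 to 2 annexins: ANXA5 and ANXA10 without null replicate 1, and ANXA13 without null replicate 2. Each omission leaves 1 library in a group, assumed to vary like the pair of the other group, so these counts rest on that pair's spread. Partner genes called numbered 1 with no filter, with DESeq2 and with the likelihood ratio test, and 0 to 5 with single libraries left out. At an unadjusted p under 0.05 those omissions gave 1 to 13 lower and 0 to 1 higher partner genes, with 13 without null replicate 1, where 1478 of 12113 genes were lower, against 273 to 812 genes under the other omissions. Of 140 values of the 10 members under the alternatives, 6 changed sign, each with a library left out: ANXA4 (0.083) and ANXA6 (-0.13) without null replicate 1, ANXA1 (0.19), ANXA2 (-0.28) and ANXA10 (-0.20) without null replicate 2, and ANXA6 (-0.20) without IMP1-OE replicate 1. TMEM30A (0.028) changed sign under scaling by library totals only, S100A10 (-0.46) and S100A11 (0.18) changed sign without null replicate 2, and S100A10 (-0.09) without IMP1-OE replicate 1. The opposite ends of their ranges over omissions were -0.38 for ANXA1, 0.43 for ANXA2, 2.25 for ANXA10, 0.84 for S100A10 and -0.89 for S100A11 without null replicate 1, and -0.39 for ANXA4 and 1.63 for ANXA6 without null replicate 2. The cause was not tested. IGF2BP1, whose groups did not overlap, could only stay above 0, at 1.26 to 2.31 with single libraries left out. With ARSI left out of the TPM, ANXA2 stood at 3252 TPM in IMP1-OE and 3263 TPM in null, so IMP1-OE no longer had the higher mean.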

Other observations

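Beyond the partner genes named above, 6 were chosen after their values were seen because their groups did not overlap. In all, the groups of 10 of the 26 tested partner genes did not overlap, 9 lower and 1 higher in IMP1-OE, beside 21.9% of all genes lower and 21.3% higher. PLAUR, the urokinase receptor gene, stood at 56.4 and 46.2 CPM in IMP1-OE, against 79.3 and 66.2 CPM in null (log2 fold change -0.50, edgeR adjusted p = 0.490). PDCD6IP, the gene of the ESCRT partner ALIX, which acts in membrane repair and vesicle release, was at 101 and 100.5 CPM in IMP1-OE, against 129 and 133 CPM in null (log2 fold change -0.37, edgeR adjusted p = 0.506). ANO6, a lipid scramblase gene that exposes the phosphatidylserine bound by annexins, was at 62.3 and 55.5 CPM in IMP1-OE, against 70.0 and 93.6 CPM in null (log2 fold change -0.47, edgeR adjusted p = 0.511). CAPN2, a calpain gene, was the 1 higher gene, at 194 and 199 CPM in IMP1-OE, against 172 and 165 CPM in null (log2 fold change 0.22, edgeR adjusted p = 0.680). CHMP4B, the gene of an ESCRT-III subunit, was at 174 and 187 CPM in IMP1-OE, against 206 and 222 CPM in null (log2 fold change -0.25, edgeR adjusted p = 0.643). TMEM30A, the gene of a lipid flippase subunit, was at 96.1 and 93.0 CPM in IMP1-OE, against 96.3 and 99.7 CPM in null (log2 fold change -0.05, edgeR adjusted p = 0.941), and its log2 fold change was 0.028 under scaling by library totals only.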
